A study of Mus musculus with 36 samples.

Results

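The interaction of genotype and diet in visceral white adipose tissue (visWAT) asks whether the difference between mice lacking *Mlkl* in adipocytes and their controls is the same on both diets. For each gene it is the difference between Adi-KO and WT mice on a high-fat diet (HFD) minus the difference between Adi-KO and WT mice on a normal chow diet (NCD). The same number is the diet difference in Adi-KO mice minus the diet difference in WT mice. All 18 visWAT libraries of the 36 libraries in the series were used, and 14136 of the 56748 genes in the deposited table were tested, namely those with a mean of at least 0.5 FPKM, a read count scaled by gene length and library size, over the 18 mice. All differences are on the log2(FPKM + 1) scale, which understates the change of genes near 1 FPKM. A positive interaction means that the gene stood higher, or less low, in Adi-KO mice relative to WT mice on HFD than on NCD.

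The Adi-KO mice combine loxP-flanked *Mlkl* alleles with the Adipo-Cre transgene, which drives recombination in mature adipocytes. The WT mice are littermates with the flanked alleles and no Cre expression, so that no group has unmodified *Mlkl* alleles. All were males on the C57BL/6J background, 16 weeks old when feeding started, and were given standard chow or a lipid-rich diet for 16 weeks. Epididymal fat was taken as visWAT, with 1 library per mouse: 4 Adi-KO mice on NCD (mice 166, 179, 197 and 199), 4 WT mice on NCD (165, 180, 182 and 183), 5 Adi-KO mice on HFD (151, 152, 153, 156 and 157) and 5 WT mice on HFD (154, 155, 161, 162 and 164). Whole tissue was sequenced, so fewer cells of a type and less RNA per cell cannot be told apart, and the RNA of cells without Cre activity is included. The p-values measure the spread between these mice.

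MLKL is the pseudokinase that executes necroptosis, a lytic and inflammatory form of cell death, and it has other roles in membrane and lipid traffic. Visceral fat of obese mice typically loses mitochondrial and lipid-synthesis transcripts of adipocytes and gains macrophages, many of them arranged around dying adipocytes and rich in lysosomal genes. Branched-chain amino acid (BCAA) breakdown and oxidative phosphorylation (OXPHOS) both take place in mitochondria and are programmes of mature adipocytes.

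The libraries held 21580696 to 30322171 reads on genes. On the first principal component (53.3% of the variance) the NCD-fed mice lay between −42.0 and −31.3 and the HFD-fed WT mice between 29.4 and 46.3. Adi-KO mice 156, 157 and 151 lay between these ranges, at 0.693, 3.36 and 23.2, while Adi-KO mice 152 and 153 were inside the WT range at 38.7 and 39.9. A pair of WT NCD libraries stood apart. In that of mouse 183, 28.5% of reads on genes fell on 12 seminal vesicle genes, against 0.0385% at most elsewhere, and it was at −70.2 on the second component. That of mouse 182 was at −46.8 on the third, with 18.3% of its reads on 20 lipogenesis genes. *Mlkl* was 1.96 to 2.49 FPKM in Adi-KO mice on NCD and 2.32 to 2.72 FPKM in Adi-KO mice on HFD. WT mice had 4.58 to 6.28 FPKM on HFD and, on NCD, 5.11, 4.63 and 3.91 FPKM in mice 165, 180 and 183. In the library labelled WT NCD mouse 182 it was 2.29 FPKM, within the range of the Adi-KO mice, so that each interaction given here includes a library whose *Mlkl* level goes against its label. The interaction of *Mlkl* itself was −0.22 (limma, unadjusted p = 0.266), and 0.06 without mice 182 and 183. *Adipoq*, the adipocyte-specific hormone adiponectin, was 742.96 to 1995.1 FPKM in all 18 libraries.

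No gene reached the threshold for the interaction, while the unadjusted values leaned to the negative side. Of 14136 genes, 0 had an adjusted p under 0.05 (limma, Benjamini-Hochberg, smallest adjusted p 0.105), which is 0% of those tested. At an unadjusted p under 0.05 there were 1867 genes, or 13.2%, of which 590 (4.17%) had a positive and 1277 (9.03%) a negative interaction. The precision was limited: the median standard error of an interaction was 0.156, and the median 95% confidence half-width was 0.331, a 1.26-fold change. By other tools, edgeR's quasi-likelihood test on reads recovered from the FPKM called 0 genes and DESeq2 called 19, or 0.134%, 2 positive and 17 negative. Without mice 182 and 183, limma called 0 of 14033 genes, with 632 (4.5%) positive and 707 (5.04%) negative at an unadjusted p under 0.05. The balance of directions at the unadjusted level therefore rested in part on how libraries were scaled and on these mice. It was 1119 positive (7.92%) to 923 negative genes (6.53%) by edgeR with TMM factors, 1140 (8.06%) to 1058 (7.48%) by DESeq2, and 10 to 3886 when the FPKM were rescaled to an equal sum in every library (the TPM scale). The TPM scale moved the median interaction of all genes from −0.01 to −0.35, because the FPKM of mice 183 and 182 sum to more than those of any other library. List medians with all mice and on the TPM scale are therefore given relative to the median of all genes under the same setting. Medians with mice left out are given as they stand. The library size behind the deposited FPKM was 1.01 and 1.08 times the reads on genes in mice 183 and 182. In the other libraries it was 1.30 to 1.40 times. The TPM scale removes this difference, so the 2 scales treat these libraries differently, and which of them suits the data was not tested.

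**Figure D1:**
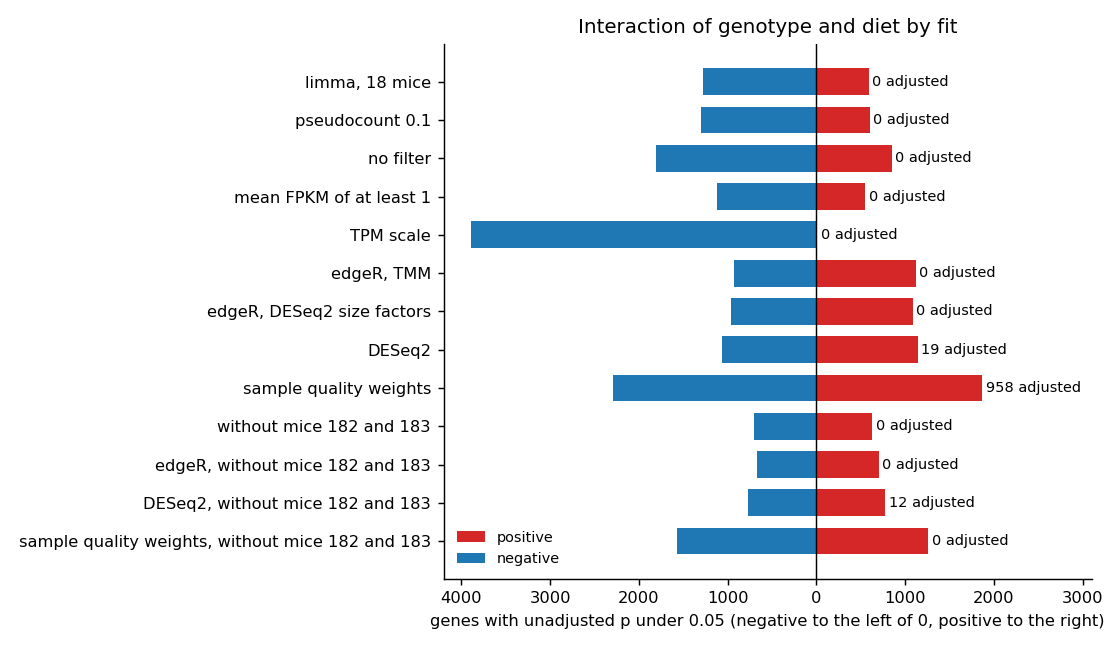
Number of genes with an unadjusted p under 0.05 for the interaction in each fit, positive to the right and negative to the left, with the number at an adjusted p under 0.05 written beside each bar. limma on 18 mice gave 590 positive and 1277 negative genes, the TPM scale gave 10 and 3886, and fits with no adjusted call stand beside DESeq2 with 19 and sample quality weights with 958.

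The genes at an unadjusted p under 0.05 mostly had opposite genotype differences on the 2 diets. Of the 590 positive genes, 566 were higher in Adi-KO than in WT mice on HFD and lower on NCD, and of the 1277 negative genes, 1233 were lower on HFD and higher on NCD. Among all genes tested these patterns held for 3420 and 4009. The positive genes had a median genotype difference of 0.23 on HFD and −0.14 on NCD, and the negative genes −0.25 on HFD and 0.17 on NCD. An interaction is built from these differences, so the opposite signs describe the genes and add no separate evidence. Across all 14136 genes the genotype difference on HFD and that on NCD had a Pearson r of −0.0095, a description across genes measured in the same libraries.

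Read as a difference of diet effects, the diet differences spread less widely over genes in Adi-KO than in WT mice, while the counts of called genes did not rank the genotypes. In WT mice 6315 genes (44.7%) differed between diets at an adjusted p under 0.05, 3430 rising and 2885 falling on HFD. In Adi-KO mice 5820 genes (41.2%) differed, 3142 rising and 2678 falling (limma, Benjamini-Hochberg). The order of these counts turned without mice 182 and 183 (6902 in WT and 7135 in Adi-KO mice, 7193 and 7453 by DESeq2), when only the groups compared were fitted (5347 and 6125), without WT NCD mouse 180 (5440 and 5733) and without WT HFD mouse 155 (5504 and 5727). Across genes the diet differences had a standard deviation of 0.652 in WT and 0.497 in Adi-KO mice, and the slope of the Adi-KO on the WT differences was 0.654 (r = 0.856), 0.675 without mice 182 and 183, and 0.659 on the TPM scale. Noise in the WT differences also lowers such a slope. Of the 2410 genes that rose in both genotypes, 1779 (73.8%) rose more in WT mice, with medians of 0.72 in WT and 0.57 in Adi-KO mice. Of the 1775 that fell in both, 921 (51.9%) fell more in WT mice. Without mice 182 and 183 these shares were 77.0% and 71.5%, and on the TPM scale 94.7% and 23.1%, so the weaker rise held under all 3 settings and the weaker fall did not hold on the TPM scale.

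**Figure D2:**
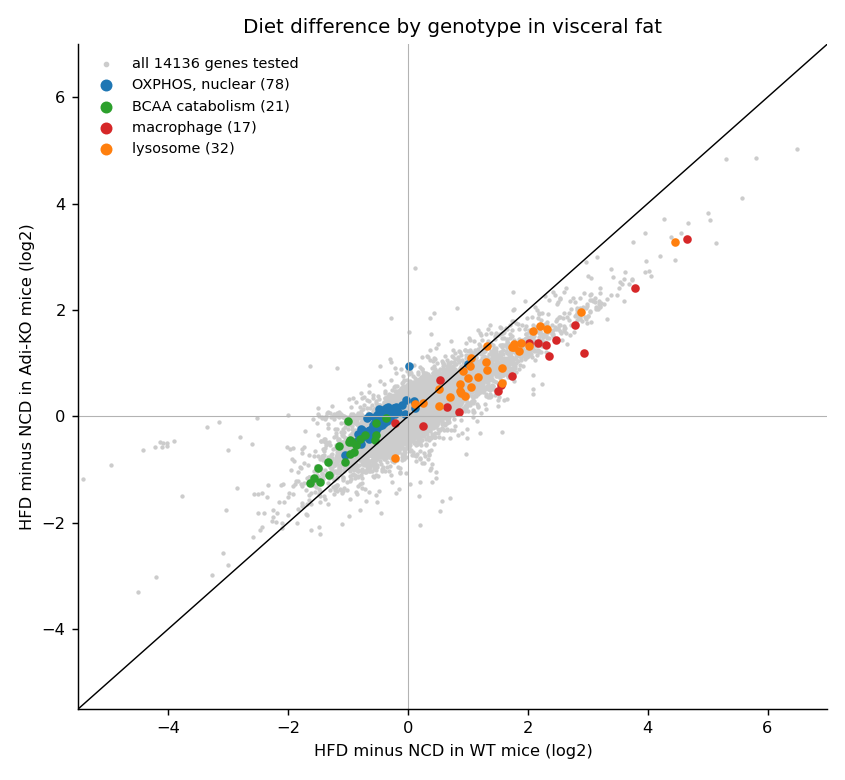
Diet difference (HFD minus NCD, log2) of each of the 14136 genes in WT mice on the horizontal axis and in Adi-KO mice on the vertical axis, with 4 gene lists in colour and the line of equal differences. Macrophage and lysosome genes lie to the upper right, mostly under the line, and BCAA catabolism genes to the lower left, above it, so that both lie nearer to 0 on the Adi-KO axis.

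Among the genes of smallest p, those with a negative interaction were led by *Abcc3*, *Resf1* and *Pctp*. *Abcc3*, an efflux transporter of organic anions and conjugates (chromosome 11 of mm39, 94234121 to 94283823), was 2.08, 1.38, 1.19 and 2.0 FPKM in WT mice on NCD and 2.94, 3.56, 2.89 and 3.38 FPKM in Adi-KO mice on NCD. On HFD it was 5.57, 5.20, 5.63, 4.26 and 6.68 FPKM in WT mice and 3.49, 4.33, 4.64, 3.84 and 3.25 FPKM in Adi-KO mice. Every Adi-KO mouse was above every WT mouse on NCD, and on HFD the order turned, with an overlap of a pair of Adi-KO mice with the lowest WT mouse. The interaction was −1.06 (standard error 0.17, 95% confidence interval −1.42 to −0.70, adjusted p = 0.105, limma, Benjamini-Hochberg). Over all genes, groups without overlap made up 1.92% with Adi-KO mice higher on NCD and 1.55% with Adi-KO mice lower on HFD. The leading genes on each side were picked by their interaction, which contains the differences on both diets, so such separation adds no separate evidence. The interaction of *Abcc3* was −1.14 to −0.97 with 1 mouse left out and −1.02 without mice 182 and 183, and the adjusted p over all alternatives ran from 4.9e-05 by DESeq2 to 0.499. *Abcc3* rose with HFD in WT mice by 1.29 (adjusted p = 1.1e-06), while the diet difference in Adi-KO mice was 0.22 (adjusted p = 0.15, both limma, Benjamini-Hochberg).

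*Resf1*, a silencer of endogenous retroviral elements (chromosome 6, 149210912 to 149237161), differed mainly on HFD. WT mice on HFD had 5.36, 3.96, 4.45, 3.67 and 5.41 FPKM and Adi-KO mice 2.21, 2.74, 2.94, 1.92 and 1.83 FPKM, with no overlap. On NCD the WT mice had 2.57, 2.37, 2.18 and 2.28 FPKM and the Adi-KO mice 2.42, 2.86, 3.24 and 3.34 FPKM, and these overlapped. The interaction was −0.98 (standard error 0.16, adjusted p = 0.105, limma, Benjamini-Hochberg, 4.9e-05 to 0.499 over the alternatives), and −0.93 without mice 182 and 183. *Resf1* was also 1 of the 9 genes (0.0637%) at an adjusted p under 0.05 for the genotype difference on HFD, at −0.74 (adjusted p = 0.011).

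*Pctp*, a carrier of phosphatidylcholine (chromosome 11, 89873491 to 89893720), again crossed over. It was 1.46 to 1.99 FPKM in WT and 2.49 to 2.94 FPKM in Adi-KO mice on NCD, and 3.75 to 5.64 FPKM in WT and 2.11 to 4.0 FPKM in Adi-KO mice on HFD. The NCD groups did not overlap, with Adi-KO mice higher, and on HFD only Adi-KO mouse 153 reached the WT range. *Pctp* rose with HFD in WT mice by 1.09 (adjusted p = 7.3e-06) and differed by 0.07 between diets in Adi-KO mice (adjusted p = 0.68, limma, Benjamini-Hochberg). Its interaction was −1.01 (adjusted p = 0.207), and −1.05 without mice 182 and 183.

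Of the other leading negative genes, *Maf* gave the same crossing and *Tent5a* differed on HFD. *Maf*, a transcription factor of macrophages and other cells, was 5.54 to 7.28 FPKM in WT and 7.48 to 9.35 FPKM in Adi-KO mice on NCD, without overlap, and 9.05 to 10.95 FPKM in WT and 5.87 to 9.24 FPKM in Adi-KO mice on HFD, where mouse 153 reached the WT range. Its interaction was −0.73, and −0.61 without mice 182 and 183. *Tent5a*, a poly(A) polymerase of secreted-protein messages, was lower in every Adi-KO mouse on HFD (3.95 to 5.45 FPKM) than in any WT mouse (5.85 to 8.93 FPKM), and its interaction was −0.82. *Dse*, an enzyme of dermatan sulphate synthesis (−0.64), *Irf2bp2*, a transcriptional co-repressor (−0.83), *Ddr2*, a collagen receptor of fibroblasts (−0.73), *Pigz*, an enzyme of glycolipid anchors (−0.68), *Arl13b*, a GTPase of primary cilia (−0.43), *Anks6*, a ciliary scaffold (−0.40), and the noncoding RNA *Mexis* (−0.69) made up the 12 with *Abcc3*, *Resf1*, *Pctp*, *Maf* and *Tent5a*. All 12 kept a negative interaction with any 1 mouse left out, which the rule that chose them required. By the same rule 641 genes qualified on the negative side.

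The 12 leading positive genes were smaller in size and differed in kind. *Pex11g*, a peroxisome division factor (chromosome 8, 3507105 to 3517680), was 2.07 to 3.18 FPKM in WT and 1.88 to 1.97 FPKM in Adi-KO mice on NCD, and 1.32 to 1.49 FPKM in WT and 1.75 to 1.93 FPKM in Adi-KO mice on HFD. The groups overlapped on neither diet, with Adi-KO mice lower on NCD (background 0.594%) and higher on HFD, and mice 182 and 183 were the highest of the WT mice on NCD. *Pex11g* fell with HFD in WT mice by 0.54 (adjusted p = 1.8e-05) and differed by −0.06 in Adi-KO mice (adjusted p = 0.56, limma, Benjamini-Hochberg). The interaction was 0.48 (adjusted p = 0.314), 0.33 without those mice and 0.16 on the TPM scale.

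For several positive genes the diet difference appeared in Adi-KO mice alone at the threshold used, although the interaction itself did not pass it. *Pelo*, a rescue factor of stalled ribosomes, was 2.32 to 2.72 FPKM in WT and 2.79 to 3.65 FPKM in Adi-KO mice on HFD, with no overlap. It rose with HFD by 0.42 in Adi-KO mice (adjusted p = 0.00018) and differed by 0.01 in WT mice (adjusted p = 0.88, limma, Benjamini-Hochberg). *Pop5*, a subunit of RNase P, rose by 0.48 and differed by −0.11, and *Osgin1*, a gene induced by oxidative stress, rose by 0.92 and differed by 0.00. The interactions were 0.40 for *Pelo*, 0.59 for *Pop5* and 0.91 for *Osgin1*. On HFD every Adi-KO mouse was also above every WT mouse for *Pop5*, and the groups overlapped for *Osgin1*. Also among them were *Pradc1* (0.49), the Polycomb protein gene *Cbx8* (0.42), the mitochondrial ribosome gene *Mrps34* (0.59), the vesicle-tethering gene *Rint1* (0.33), the peroxisome gene *Pex10* (0.37), *SNORA2C* (0.82) and *Znhit3* (0.40). On the positive side 547 genes qualified, and 5 predicted genes ahead of these were counted and not named.

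**Figure D3:**
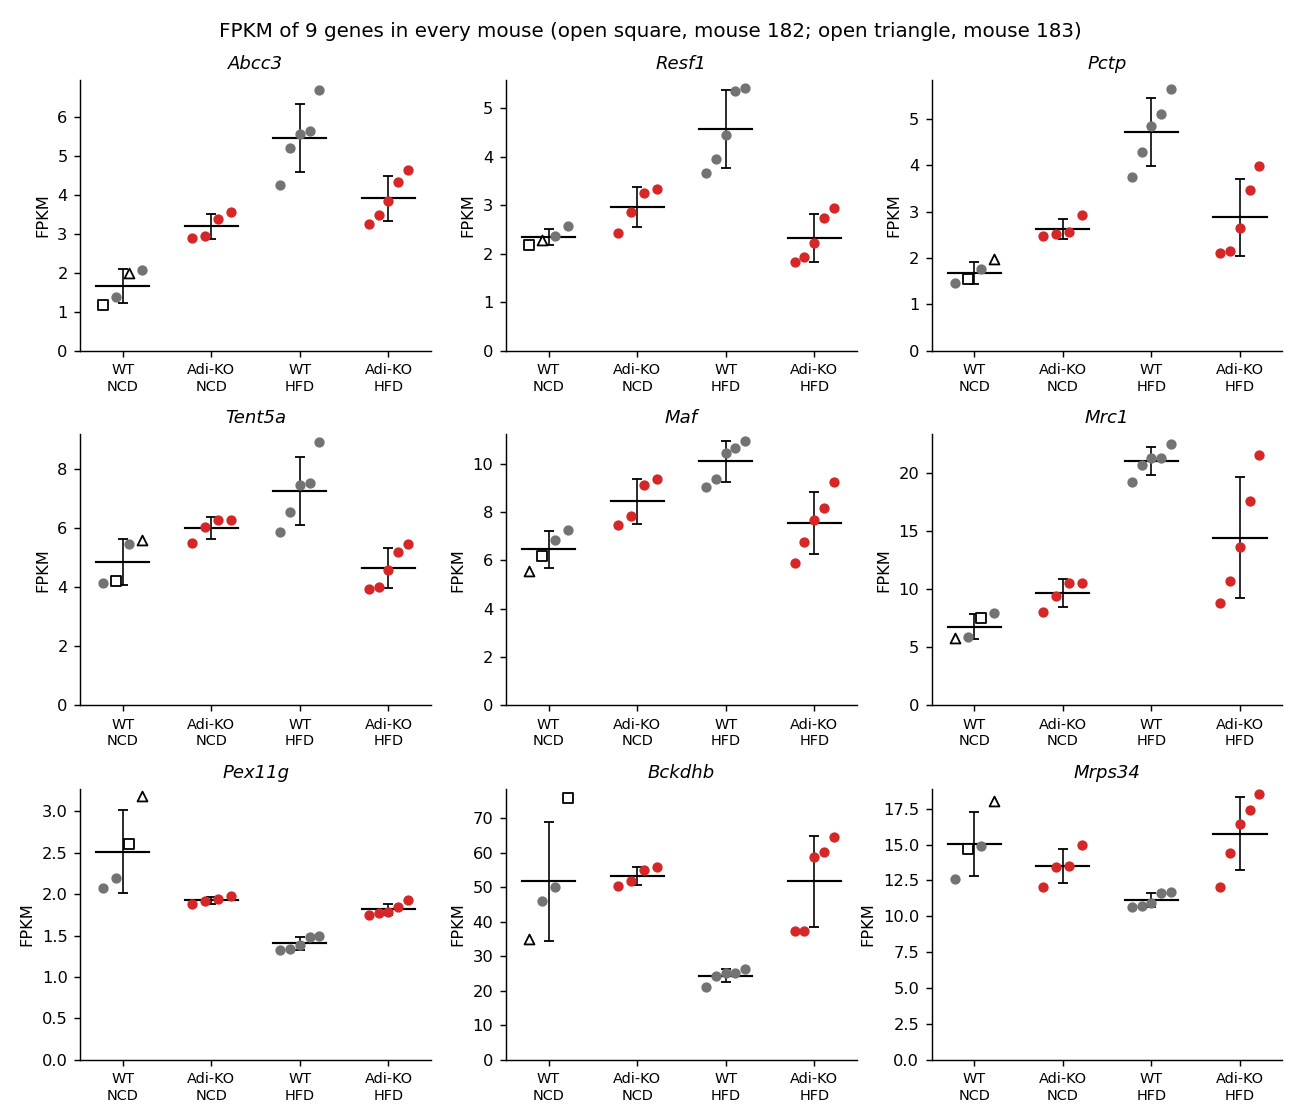
FPKM of 9 genes in every mouse, by group, with the group mean and SD as lines and bars. *Abcc3*, *Pctp* and *Maf* stand higher in Adi-KO than in WT mice on NCD and lower on HFD, *Pex11g* shows the reverse, and *Bckdhb* differs on HFD, where all 5 Adi-KO mice are above all 5 WT mice.

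Gene lists were described next, beginning with mitochondrial metabolism. Of the 78 nuclear OXPHOS genes, all tested, 77 had a positive interaction, against 48.2% of all genes, and 17 were at an unadjusted p under 0.05, all positive (background 4.17%). The list median was 0.38 above that of all genes, 0.25 above it on the TPM scale and 0.28 as it stands without mice 182 and 183. On HFD, 76 of the 78 genes were higher in Adi-KO mice (background 50%), 34 of them at an unadjusted p under 0.05 (background 8.47% in that direction), and for 11 genes every Adi-KO mouse was above every WT mouse (background 1.42%). On NCD the median difference was −0.09, and −0.02 without mice 182 and 183. In WT mice 55 of the 78 genes fell with HFD at an adjusted p under 0.05, against 20.4% of all genes, and in Adi-KO mice 7 did, against 18.9%.

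The mean level of the nuclear OXPHOS list in each mouse, as mean log2(FPKM + 1), was 5.75, 5.43, 5.53, 5.77 and 5.88 in Adi-KO mice 151, 152, 153, 156 and 157 on HFD and 5.32 to 5.47 in the WT mice on HFD. Only mouse 152 fell within the WT range. On NCD the Adi-KO mice had 5.67 to 5.83, and the WT mice 165, 180, 182 and 183 had 5.63, 5.88, 6.34 and 5.53. Mouse 182 was the highest of all 18 mice. The median interaction of the list was 0.20 with mouse 182 left out and 0.48 with mouse 183 left out, which are the ends of its range over the fits that leave out 1 mouse.

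Single OXPHOS genes had the same form at modest sizes. *Ndufs6*, a subunit of complex I, was 34.6 to 46.0 FPKM in Adi-KO and 27.8 to 34.0 FPKM in WT mice on HFD, without overlap, and 35.9 to 42.1 FPKM in Adi-KO and 37.6 to 55.2 FPKM in WT mice on NCD. Its interaction was 0.53 (limma, unadjusted p = 0.0032), and 0.41 without mice 182 and 183. *Ndufb11*, another subunit of complex I, fell with HFD in WT mice by 0.53 (adjusted p = 0.00042) and differed by −0.03 in Adi-KO mice (adjusted p = 0.84, limma, Benjamini-Hochberg), for an interaction of 0.50. All 13 genes of the mitochondrial genome had a positive interaction, 3 at an unadjusted p under 0.05 (background 4.17%), with a median 0.56 above that of all genes and 0.45 on the TPM scale. That median ran from 0.22 without mouse 182 to 0.84 without mouse 183. Of these 13 genes, 12 fell with HFD in WT mice at an adjusted p under 0.05 (background 20.4%) and 5 in Adi-KO mice (background 18.9%). The median diet difference was −1.28 in WT and −0.74 in Adi-KO mice. The 3 at an unadjusted p under 0.05 for the interaction were *mt-Nd3*, *mt-Nd4l* and *mt-Co3*. *mt-Nd3* was 12.7 to 28.9 FPKM in WT and 24.4 to 50.5 FPKM in Adi-KO mice on HFD, and 17.6 to 88.5 FPKM in WT mice on NCD, where mouse 183 was the lowest and mouse 182 the highest.

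BCAA catabolism gave a set of 21 genes that all fell with HFD in WT mice at an adjusted p under 0.05 (background 20.4%), while 14 fell in Adi-KO mice (background 18.9%). All 21 had a positive interaction, 6 at an unadjusted p under 0.05 (background 4.17%), and all 21 were higher in Adi-KO than in WT mice on HFD, 8 at an unadjusted p under 0.05 (background 8.47%). The median interaction was 0.39 above that of all genes and 0.26 on the TPM scale. It was 0.23 without mouse 182, 0.47 without mouse 183 and 0.38 without both. *Bckdhb*, the E1 beta subunit of the branched-chain ketoacid dehydrogenase (chromosome 9, 83807198 to 84006293), was 25.1, 21.1, 24.2, 26.3 and 25.3 FPKM in WT mice on HFD and 58.9, 37.4, 37.3, 60.3 and 64.6 FPKM in Adi-KO mice on HFD. On NCD it was 46.0, 50.2, 75.8 and 35.0 FPKM in WT mice and 54.9, 50.3, 51.8 and 55.9 FPKM in Adi-KO mice. The groups did not overlap on HFD, and on NCD the Adi-KO mice lay inside the WT range. *Bckdhb* fell with HFD in WT mice, with a diet difference of −1.0029 (adjusted p = 0.0005), against −0.08 in Adi-KO mice (adjusted p = 0.77). The interaction was 0.92 (standard error 0.27, adjusted p = 0.317, 0.0185 to 0.547 over the alternatives, limma, Benjamini-Hochberg), 0.87 without mice 182 and 183 and 0.45 on the TPM scale. *Bckdhb*, *Gsta4*, *Cxcr4*, *Wee1*, *Sgk1* and *Adipoq* are genes that the study itself picked from these libraries or measured again by RT-qPCR. Their HFD differences are therefore no independent support.

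The mitochondrial ribosome list had 33 of 34 genes with a positive interaction, 9 at an unadjusted p under 0.05 (background 4.17%), and a median 0.31 above that of all genes (0.20 on the TPM scale). The median was 0.20 without mouse 182 and 0.17 without mice 182 and 183. Without both mice, 2 of the 34 were positive at an unadjusted p under 0.05, a share near the 4.5% of all genes. All 34 were higher in Adi-KO mice on HFD, 14 at an unadjusted p under 0.05 (background 8.47%). *Mrps34* was 10.6 to 11.7 FPKM in WT and 12.1 to 18.5 FPKM in Adi-KO mice on HFD, without overlap. The 17 genes of the TCA cycle and pyruvate oxidation all had a positive interaction, 1 at an unadjusted p under 0.05, with a median 0.38 above that of all genes (0.24 on the TPM scale). The size of this median depended on single libraries. It was 0.06 without mouse 182, 0.53 without mouse 183 and 0.20 without both, where 16 of the 17 were positive. Of the 21 fatty acid oxidation genes tested, 20 had a positive interaction, 2 at an unadjusted p under 0.05, with a median 0.37 above that of all genes (0.27 on the TPM scale). It was 0.15 without mouse 182, 0.53 without mouse 183 and 0.28 without both. Without both, 20 genes were tested, with 7 positive (background 4.5%) and 1 negative (background 5.04%) at an unadjusted p under 0.05. The exception with all mice was *Cpt1a*, the liver isoform of the carnitine palmitoyltransferase, which rose with HFD in both genotypes, by 1.17 in WT and 0.71 in Adi-KO mice, for an interaction of −0.46 (limma, unadjusted p = 0.017). *Eci1*, an isomerase for unsaturated acyl chains, was at 0.63, falling by 0.81 in WT mice. All 20 lipogenesis genes had a positive interaction, 0 at an unadjusted p under 0.05, with a median 0.47 above that of all genes (0.33 on the TPM scale). It was 0.11 without mouse 182, 0.71 without mouse 183 and 0.27 without both, where 14 of the 20 were positive. *Acacb*, the acetyl-CoA carboxylase of mitochondria, shows the part of mouse 182: it was 75.6 FPKM in mouse 182 and 14.1 to 35.2 FPKM in the other WT mice on NCD.

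Adipocyte markers also had a positive median, with no member past the unadjusted threshold when all mice were kept. Of 19 adipocyte markers, 16 had a positive interaction, 0 at an unadjusted p under 0.05, with a median 0.37 above that of all genes and 0.22 on the TPM scale, which was 0.24 without Adi-KO HFD mouse 157. Without mice 182 and 183 the median was 0.53 and 18 of the 19 were positive, 3 of them at an unadjusted p under 0.05 (background 4.5%). On HFD, 10 of the 19 were higher in Adi-KO mice at an unadjusted p under 0.05 (background 8.47%), and the median difference was 0.41. *Adipoq* was 1827.5, 1018.1, 890.74, 1994.2 and 1946.7 FPKM in Adi-KO mice 151, 152, 153, 156 and 157 and 742.96 to 988.68 FPKM in WT mice on HFD. Mice 151, 156 and 157 were within the NCD range and mouse 153 was within the WT range. The summed level of the 19 markers took 3.77% to 6.29% of reads in Adi-KO mice and 3.38% to 4.16% in WT mice on HFD, and 6.61% to 7.59% in Adi-KO and 3.73% to 7.55% in WT mice on NCD. No marker was at 0 in all mice. OXPHOS and BCAA genes are also adipocyte genes, and the part of adipocyte content in their values was not tested.

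**Figure D4:**
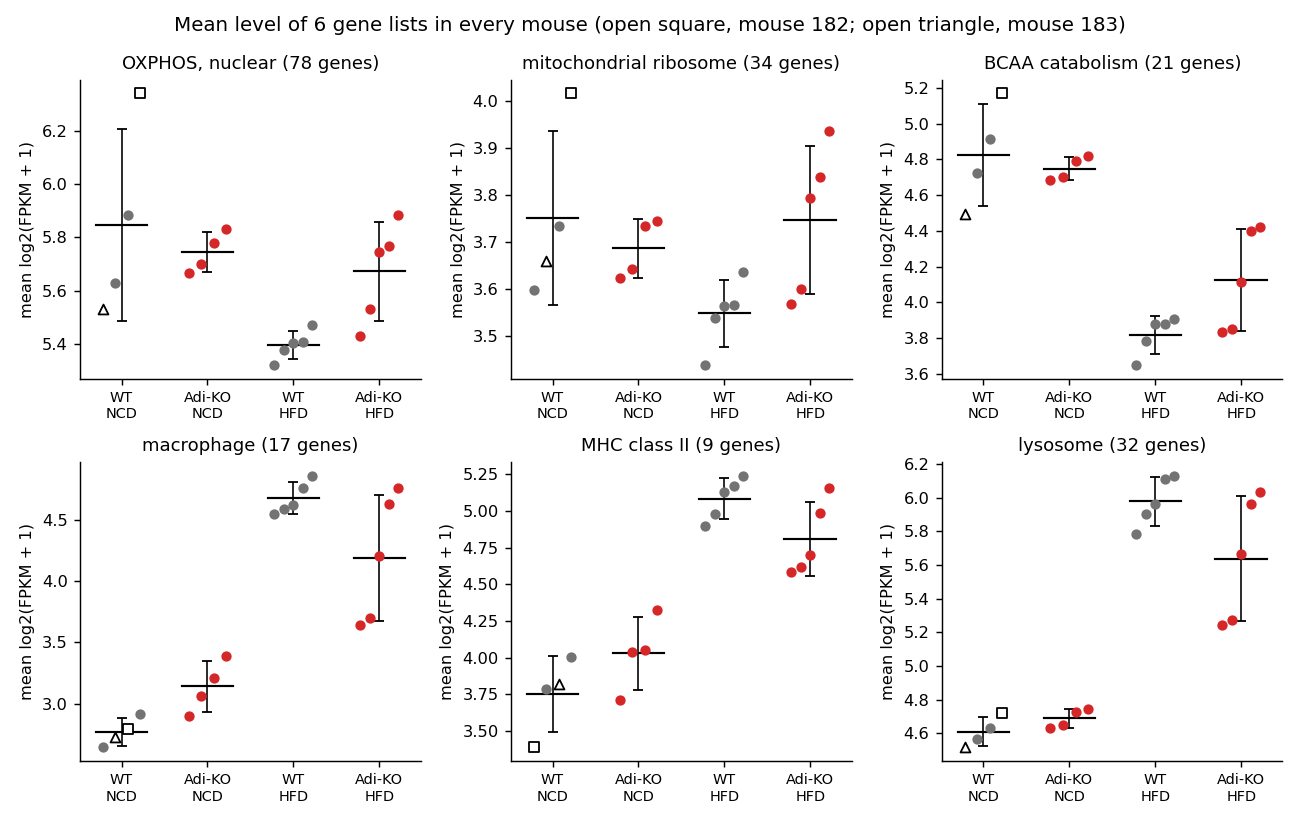
Mean log2(FPKM + 1) of 6 gene lists in every mouse, by group, with the group mean and SD as lines and bars. For nuclear OXPHOS the HFD-fed Adi-KO mice reach 5.88, above the 5.32 to 5.47 of HFD-fed WT mice, and for macrophage genes mice 156 and 157, at 3.64 and 3.70, lie well under the 4.55 to 4.86 of HFD-fed WT mice.

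Macrophage genes had the lowest median interaction of the 40 gene lists with all mice, though not without mice 182 and 183, where the median was −0.80, against −1.25 for 4 seminal vesicle genes and −1.67 for 1 epididymis gene. Of 17 macrophage markers, 15 had a negative interaction and 12 were at an unadjusted p under 0.05, all negative, against 9.03% of all genes. The median was 0.96 below that of all genes, 1.05 below it on the TPM scale, and it ran from −1.15 to −0.78 with 1 mouse left out. Both diets contributed. On HFD the median genotype difference was −0.58, with 10 genes lower in Adi-KO mice at an unadjusted p under 0.05 (background 11.4%), but for none of the 17 genes were all Adi-KO mice below all WT mice. On NCD all 17 were higher in Adi-KO mice (background 54.2%), by a median of 0.39, with 4 at an unadjusted p under 0.05 (background 4.58%), and for 7 of them every Adi-KO mouse was above every WT mouse (background 1.92%). In WT mice 14 of the 17 rose with HFD at an adjusted p under 0.05 (background 24.3%), and in Adi-KO mice 13 did (background 22.2%).

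The level per mouse varied most among the HFD-fed Adi-KO mice. The mean log2(FPKM + 1) of the macrophage list was 4.21, 4.63, 4.76, 3.64 and 3.70 in Adi-KO mice 151, 152, 153, 156 and 157 on HFD, and 4.55 to 4.86 in WT mice on HFD. Mice 152 and 153 were thus inside the WT range and the other 3 below it. On NCD the Adi-KO mice had 2.90 to 3.39 and the WT mice 2.65 to 2.92, so that only mouse 166, at 2.90, was below the highest WT mouse. The markers summed to 0.178% to 0.511% of reads in Adi-KO and 0.429% to 0.550% in WT mice on HFD, and to 0.0883% to 0.141% in Adi-KO and 0.0568% to 0.0975% in WT mice on NCD. None was at 0 in all mice. The share of macrophage content in the values of the lists that follow was not tested.

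*Mrc1*, the mannose receptor CD206 of resident macrophages, was 13.6, 17.6, 21.6, 8.79 and 10.7 FPKM in Adi-KO mice 151, 152, 153, 156 and 157 and 19.2 to 22.5 FPKM in WT mice on HFD, and 8.02 to 10.6 FPKM in Adi-KO and 5.78 to 7.96 FPKM in WT mice on NCD. The NCD groups did not overlap, with Adi-KO mice higher, and on HFD only mouse 153 reached the WT range. *Mrc1* rose with HFD by 1.51 in WT mice (adjusted p = 8.9e-06) and by 0.48 in Adi-KO mice (adjusted p = 0.047, limma, Benjamini-Hochberg). Its interaction was −1.03 (standard error 0.26, 95% confidence interval −1.58 to −0.48, adjusted p = 0.314, limma, Benjamini-Hochberg, 0.0185 to 0.545 over the alternatives), and −1.01 without mice 182 and 183.

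Genes of lysosomes, antigen presentation and lipid-associated macrophages lay on the same side. Of 32 lysosome genes, 30 had a negative interaction, 11 at an unadjusted p under 0.05 (background 9.03%), with a median 0.43 below that of all genes (0.55 on the TPM scale, −0.42 as it stands without mice 182 and 183). Without those mice, 4 of the 32 were negative at an unadjusted p under 0.05 (background 5.04%). In WT mice 30 rose with HFD at an adjusted p under 0.05 (background 24.3%) and in Adi-KO mice 27 did (background 22.2%). *Ctsh*, a lysosomal cysteine protease, was 18.5 to 26.4 FPKM in Adi-KO and 25.9 to 32.6 FPKM in WT mice on HFD, and its interaction was −0.66. Of 9 MHC class II genes, 8 were negative, 6 at an unadjusted p under 0.05 (background 9.03%), with a median 0.71 below that of all genes (0.85 on the TPM scale). *H2-Aa*, the alpha chain of I-A, was 88.6 to 157 FPKM in Adi-KO and 122 to 174 FPKM in WT mice on HFD, and 44.3 to 85.3 FPKM in Adi-KO and 32.2 to 55.5 FPKM in WT mice on NCD, with overlap on both diets. Its interaction was −0.88 (limma, unadjusted p = 0.0063), and −0.65 without mice 182 and 183. *Ciita*, the master regulator of class II genes, was at −0.65. Of the 21 genes of lipid-associated macrophages, 19 were negative, with a median 0.44 below that of all genes (0.57 on the TPM scale), yet 3 (*Spp1*, *Ctsk* and *Atp6v0d2*) were at an unadjusted p under 0.05, a share near the 9.03% of all genes, and 0 without mice 182 and 183. At an adjusted p under 0.05, 17 of the 21 rose with HFD in WT (background 24.3%) and 18 in Adi-KO mice (background 22.2%). *Spp1*, osteopontin, was 4.46 to 45.4 FPKM in Adi-KO and 29.0 to 51.7 FPKM in WT mice on HFD, and its interaction of −1.87 had a confidence interval of −3.46 to −0.28.

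Matrix and progenitor genes followed with smaller values. Of 32 collagen and matrix genes, 28 had a negative interaction, and the median was 0.38 below that of all genes (0.49 on the TPM scale) and −0.26 without Adi-KO HFD mouse 156. The 4 at an unadjusted p under 0.05 were a share near the 9.03% of all genes, so the members named here are examples and no result about the list. In WT mice 29 rose with HFD at an adjusted p under 0.05 (background 24.3%), and in Adi-KO mice 20 did (background 22.2%). *Dcn*, the proteoglycan decorin, was 146, 172, 149 and 175 FPKM in Adi-KO and 146, 105, 110 and 117 FPKM in WT mice on NCD, and 160, 199, 179, 126 and 119 FPKM in Adi-KO and 185 to 225 FPKM in WT mice on HFD. Adi-KO mice were the higher on NCD and mostly the lower on HFD. *Dcn* rose with HFD in WT mice by 0.77 (adjusted p = 0.00041) and differed by −0.06 in Adi-KO mice (adjusted p = 0.78, limma, Benjamini-Hochberg). *Timp2*, a metalloproteinase inhibitor, had an interaction of −1.0025, and the other members at an unadjusted p under 0.05 were *Col5a1* (−0.55) and *Loxl1* (−0.59). *Pdgfra*, a receptor of adipocyte progenitors, was at −0.79. Among 15 progenitor genes 12 were negative, with a median 0.24 below that of all genes (0.26 on the TPM scale, −0.16 without mice 182 and 183), and 2, *Pdgfra* and *Fap*, were at an unadjusted p under 0.05, again near the background.

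Inflammatory and cell death genes had smaller negative medians. Of 19 genes of necroptosis and pyroptosis, 18 had a negative interaction, 7 at an unadjusted p under 0.05 (background 9.03%), with a median 0.21 below that of all genes and 0.22 on the TPM scale. Without mice 182 and 183, 5 of the 19 were positive, 5 were negative at an unadjusted p under 0.05 (background 5.04%) and the median was −0.14. For 4 of the 19, namely *Mlkl*, *Birc3*, *Tlr4* and the inflammatory caspase gene *Casp4*, the groups did not overlap on HFD, with Adi-KO mice lower (background 1.55%). *Mlkl* is the deleted gene, so its separation follows from the design. *Birc3*, *Tlr4* and *Tnfrsf1a* also belong to the NF-kappaB and TNF list that follows. Of 22 NF-kappaB and TNF genes, 17 were negative, 6 at an unadjusted p under 0.05 (background 9.03%), with a median 0.21 below that of all genes (0.25 on the TPM scale). *Tnfaip3*, the A20 brake on NF-kappaB, was 1.27 to 2.03 FPKM in Adi-KO and 2.02 to 3.02 FPKM in WT mice on HFD, and 0.94 FPKM in mouse 182 against 1.83 to 2.59 FPKM in the other WT mice on NCD. Its interaction was −0.73, and −0.47 without mice 182 and 183. *Birc3*, an inhibitor of apoptosis, was lower in all Adi-KO mice on HFD (2.21 to 3.19 FPKM) than in any WT mouse (3.35 to 4.11 FPKM), for an interaction of −0.41. *Tlr4*, the receptor for lipopolysaccharide, had an interaction of −0.54, and its HFD groups met at 3.54 FPKM. That of *Casp4*, named after its values were seen, was −0.41. Of 22 chemokine ligands 18 were negative, with a median 0.25 below that of all genes (0.29 on the TPM scale) and −0.16 without WT NCD mouse 180. The 3 at an unadjusted p under 0.05, a share near the 9.03% of all genes, were *Ccl6* (−0.96), *Ccl9* (−1.15) and *Cxcl12* (−0.43), all higher in every Adi-KO than in any WT mouse on NCD (background 1.92%). These 3 were picked by their interaction, which contains the NCD difference, so this separation adds no separate evidence. All 9 chemokine receptor genes were negative, with a median 0.24 below that of all genes (0.25 on the TPM scale), 2 at an unadjusted p under 0.05 (*Ccr2* and *Cxcr4*). The 20 interferon-response genes had a median 0.04 above that of all genes, with a difference of −0.0016 on the TPM scale and 0 at an unadjusted p under 0.05.

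**Figure D5:**
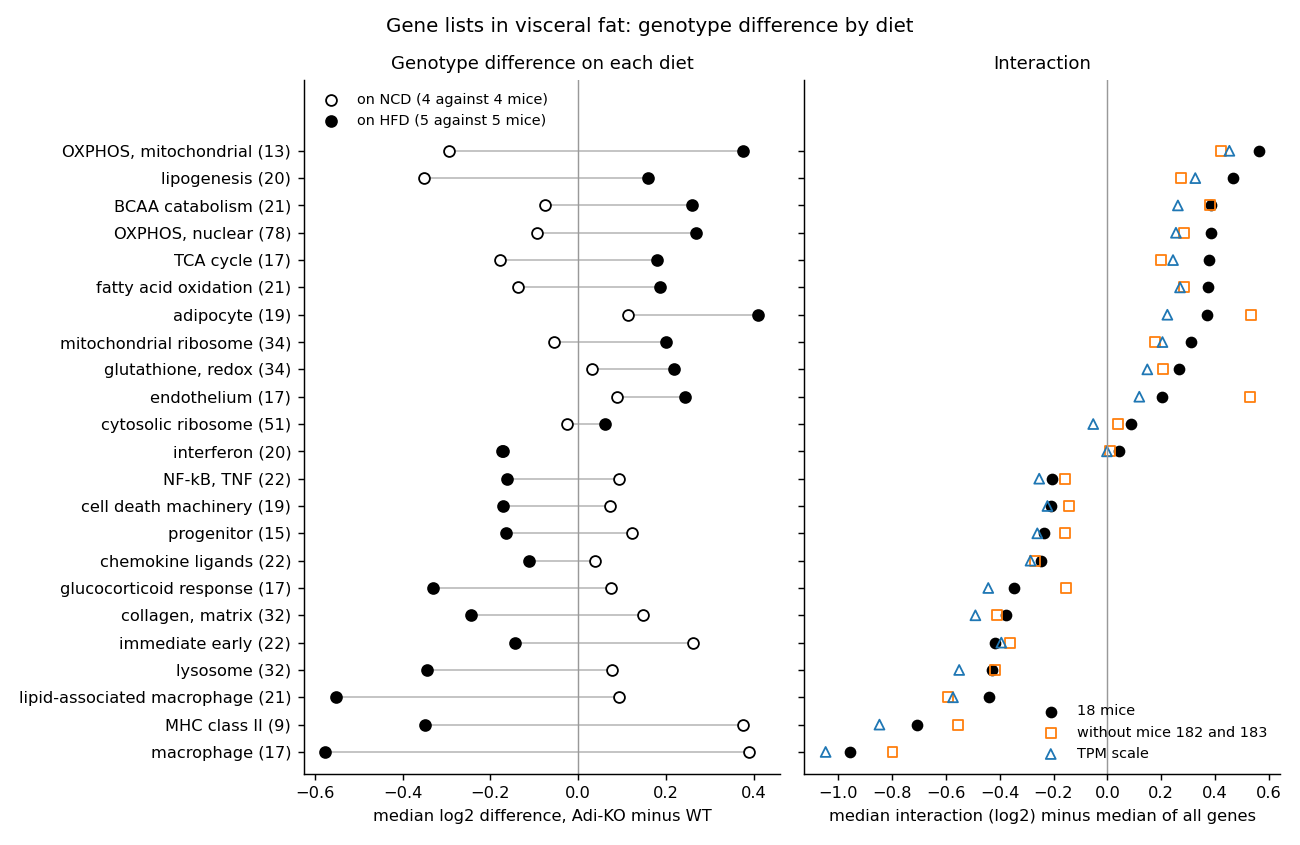
Median over each gene list of the genotype difference on each diet (left) and of the interaction minus the median of all genes (right, with the fit without mice 182 and 183 and the TPM scale), in log2 units, with the number of genes tested in brackets. Nuclear OXPHOS lies 0.38 above the median of all genes and macrophage genes 0.96 below it, with the open symbols on the same side of 0 for both.

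The genes the study examined in fat were placed in the interaction as well. *Gsta4*, a glutathione transferase that detoxifies lipid peroxidation products, was 21.4, 12.7, 9.08, 30.3 and 28.2 FPKM in Adi-KO and 2.31 to 5.31 FPKM in WT mice on HFD, and 43.5 to 55.5 FPKM in Adi-KO and 23.2, 29.5, 70.9 and 20.9 FPKM in WT mice 165, 180, 182 and 183 on NCD. The HFD groups did not overlap, and on NCD only mouse 182 exceeded the Adi-KO mice. *Gsta4* fell with HFD by 2.85 in WT and 1.36 in Adi-KO mice (adjusted p = 1.1e-05 and 0.0067, limma, Benjamini-Hochberg), and its interaction of 1.49 had a confidence interval of 0.42 to 2.56 (adjusted p = 0.33). It was 1.22 without mice 182 and 183. *Cxcr4*, the receptor of CXCL12, was lower in Adi-KO mice on both diets, without overlap on HFD, and its interaction of −0.41 was small beside its diet rise of 1.26 in WT mice. *Wee1*, a kinase that restrains entry into mitosis, was 2.53 to 3.61 FPKM in Adi-KO and 4.49 to 6.84 FPKM in WT mice on HFD and overlapped on NCD. It rose with HFD by 0.97 in WT mice (adjusted p = 3.2e-05) and differed by 0.21 in Adi-KO mice (adjusted p = 0.23, limma, Benjamini-Hochberg), for an interaction of −0.76, and −0.92 without mice 182 and 183. *Sgk1*, a serum- and glucocorticoid-induced kinase, was lower in every Adi-KO than in any WT mouse on HFD, but its interaction of −0.53 had a confidence interval of −1.50 to 0.45, with 52.2 FPKM in mouse 183. *Foxa1* and *Ucp1* were below the filter and were not tested.

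A gene can differ strongly by genotype without any interaction, and *Zfp949* is the clearest case. This zinc finger gene, chosen after its values were seen, was the only gene at an adjusted p under 0.05 on both diets, 1.16 higher in Adi-KO mice on HFD (adjusted p = 1.4e-05) and 1.02 higher on NCD (adjusted p = 0.000465, limma, Benjamini-Hochberg). Its interaction was 0.14 (limma, unadjusted p = 0.334), with a sign that turned on the TPM scale and without mice 182 and 183. On NCD it was the sole call, or 0.00707% of genes tested.

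The call lists of the alternatives differed in size and shared part of their genes. DESeq2's 19 genes were *Abcc3*, *Resf1*, *Pctp*, *Tent5a*, *Maf*, *Dse*, *Irf2bp2*, *Arl13b*, *Pigz*, *Anks6*, *Cysltr1*, *Scrn1* and *Pex11g*, with 1 predicted gene and with *Ccdc153*, *Adam7*, *Cuzd1*, *Calml3* and *Lypd8*. The last 5 had nearly all of their reads in Adi-KO NCD mice 166 and 179 and WT HFD mouse 154. *Adam7*, a gene of the epididymis, was 3.64 and 12.7 FPKM in mice 166 and 179, 0.982 FPKM in mouse 154 and 0.052 FPKM at most in all others, so these calls stand on 3 libraries. Leaving out WT NCD mouse 165 gave 14 calls (0.0989%), 1 positive, among them *Abcc3*, *Resf1*, *Dse*, *Irf2bp2*, *Arl13b*, *Ddr2* and *Pex11g* together with *Csf1*, *C1ra*, *C1s1*, *Man1a*, *Pros1* and *St3gal2*. Leaving out Adi-KO HFD mouse 153 gave 4 (0.0283%), with *Abcc3*, *Resf1* and *Pctp*. Weighting libraries by quality gave mice 182 and 183 weights of 0.194 and 0.173. It called 958 genes (6.78%), 365 positive and 593 negative, of which 777 were at an unadjusted p under 0.05 with equal weights. Of DESeq2's 19 genes, 14 were among the 958. The number of calls was 0 when the same weighting was run without mice 182 and 183. The cause of this was not tested.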

How the data were processed

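RNA of epididymal fat (visWAT) and liver was sequenced as 1 library per mouse. Per the study's methods, reads were trimmed with fastp and aligned to the mm39 mouse genome with HISAT2, and per the labels they were assigned to genes with featureCounts 1.5.0-p3. The authors deposited FPKM for 56748 genes, and counts, fold changes, p-values and pathway results of their own comparisons. The values tested here were the FPKM of the 18 visWAT libraries. Deposited counts of the same libraries were used only to derive the library size by which reads were recovered from the FPKM. The 18 liver columns were not analysed, and 36 other per-sample columns of the comparison tables, which repeat counts and FPKM for part of the genes, were not used. The columns of fold changes, p-values and pathway terms hold the authors' own findings and were not used.

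Groups came from the labels. The test was limma 3.58.1 (R 4.3.3) on log2(FPKM + 1), with 4 group means, all 18 mice sharing 1 spread, a mean-variance trend, and Benjamini-Hochberg adjustment over the 14136 genes whose mean over all mice reached 0.5 FPKM, at a threshold of 0.05. The study used count tests. Since the table of all genes holds FPKM, DESeq2 1.42.0 and edgeR 4.0.16 were run as alternatives on reads recovered from it, of which 100% came out whole. The limma, edgeR and DESeq2 fits were tested on simulated reads with the same spread for every gene and no library that stood apart. The other steps were not tested in this way.

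The 40 gene lists came from textbook knowledge and were described by counts and medians, with no set test. The lists, the named genes and the comparison itself were chosen with earlier results of these data known. Named are the genes the study examined in visWAT, genes called for the interaction in the equal-weight fits, edgeR, DESeq2 or with 1 mouse left out, the 12 genes of smallest p on each side among those with at least 1 FPKM in a group, the same sign with any mouse left out and an unadjusted p under 0.05 without mice 182 and 183, and up to 2 members of each list on each side. Genes known only by a predicted name were counted and not named. Some genes that the rule names are not reported here. *Ccl9*, *mt-Co3*, *Atp6v0d2*, *Col5a1*, *Loxl1*, *Casp4* and *Zfp949* were named after their values were seen.

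The other settings were a filter of 1 FPKM or none, a pseudocount of 0.1, TPM in place of FPKM, edgeR with TMM or DESeq2 factors, DESeq2, sample quality weights, each mouse left out, and the fit without mice 182 and 183. Running the count tests and the weights without those mice was chosen after seeing the data. No pair of replicates agreed within sampling noise, as the smallest chi-square per gene between replicates was 9.82. Figures were drawn with matplotlib 3.10.9.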

Additional observations from a re-analysis of the deposited data

Results flagged for a closer look

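Single libraries that lay apart from their group, by Dixon's test at the 95% level, were found for 23 of 244 sets of values, where chance gives about 1 in 20. WT NCD mouse 183 had a mean log2(FPKM + 1) of 6.20 over 4 epididymis genes, against 0.0173 to 1.06 in the other WT NCD mice, with 3.44 FPKM of *Wee1* (others 1.91 to 2.02) and 3.76 FPKM of *Foxa1*. Mouse 182, labelled WT NCD, had 6.23 FPKM of *Ucp1*, the uncoupling protein of brown fat, against at most 0.12 FPKM in its group, and 2.51 FPKM of *Cbx8* (others 2.10 to 2.14). WT NCD mouse 165 had 5.46 FPKM of *Dse* (others 4.10 to 4.25) and 10.4 FPKM of *Csf1* (others 6.67 to 7.22). Mouse 180 of the same group had 0.052 FPKM of *Adam7*.

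Among Adi-KO NCD mice, mouse 179 had 28.7 FPKM of *Cuzd1*, 15.2 FPKM of *Calml3* and 8.73 FPKM of *Ccdc153*, where the others had at most 3.75, 0.966 and 0.539 FPKM. Mouse 197 had a mean of 2.68 over the seminal vesicle genes (others 0.288 to 0.316) and 1.64 FPKM of *Pigz* (others 1.01 to 1.10), and mouse 199 had 2.94 FPKM of *Pctp* (others 2.49 to 2.56). Among WT HFD mice, mouse 154 had 4.22 FPKM of *Cuzd1*, 2.67 FPKM of *Calml3*, 2.75 FPKM of *Ccdc153*, 1.23 FPKM of *Lypd8* and 0.982 FPKM of *Adam7*. Mouse 162 had a seminal vesicle mean of 0.671 (others 0.250 to 0.305), and mouse 164 had 0.0192 FPKM of *Foxa1*. Among Adi-KO HFD mice, mouse 156 had 0.153 FPKM of *Foxa1* and mouse 151 had 0.0135 FPKM of *Cuzd1*, which is 1 read.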

How the results depend on the processing

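No paired analysis was possible because the 4 visWAT groups share no mouse numbers. The count of genes at an adjusted p under 0.05 for the interaction, 0 in the fit as reported, was 19 by DESeq2, 958 with sample quality weights, 12 by DESeq2 without mice 182 and 183, and 0 to 14 with 1 mouse left out (14 without WT NCD mouse 165, 4 without Adi-KO HFD mouse 153). For the genotype difference on HFD (9 genes) it was 4 on the TPM scale, 179 by DESeq2, 3232 with sample quality weights, 23 without mice 182 and 183, 3 when the HFD groups were fitted alone, and 2 to 1059 with 1 mouse left out. It was 1059 without Adi-KO mouse 153, 572 without 152, 3 without 157 and 2 without 151, 5 without WT HFD mouse 164 and 14 without WT NCD mouse 182. For that on NCD (1 gene) it was 2 without a filter, 18 by DESeq2, 13 with sample quality weights, 4 without mice 182 and 183, 0 when the NCD groups were fitted alone, and 1 to 18 with 1 mouse left out (18 without mouse 165, 5 without mouse 182). For the diet difference in Adi-KO mice (5820 genes) it was 2442 on the TPM scale. The causes were not tested. On the TPM scale the interaction changed sign for *Adipoq* (−0.0785), *Bckdk* (−0.0549), *Cidec* (−0.0770), *Etfb* (−0.0070), *Idh3g* (−0.0547), *Lpin1* (−0.0825), *Mrps16* (−0.11), *Nr1d1* (−0.0878), *Rps19* (−0.0892), *Suclg1* (−0.0908) and *Zfp949* (−0.20). Without mice 182 and 183 it changed sign for *Cd36* (0.0318 by limma, 0.0312 by DESeq2, 0.0182 by edgeR) and *Mlkl* (0.0560 by limma, 0.0986 by DESeq2, 0.0856 by edgeR, 0.0072 with weights). The interaction of Zfp949 was −0.0649 by limma and −0.0538 with weights without these mice, and −0.0310 with weights on all mice. Of the values for named genes under an alternative, 21 changed sign, 115 newly passed the threshold and 3124 did neither. Of the list medians, 63 moved by more than the spread between mice and 977 did not. With 4 or 5 mice a group, the median half-width of an interaction was 0.331. A typical gene therefore needed an interaction larger than this, in either direction, for an unadjusted p under 0.05. The threshold on the adjusted p is stricter, and the smallest interaction detectable at it was not tested.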

Other observations

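Mast cell, endothelial and stress-response genes were also measured. *Mcpt4*, a protease of connective tissue mast cells, was 19.6, 17.4, 16.4, 9.21 and 7.36 FPKM in Adi-KO mice 151, 152, 153, 156 and 157 on HFD and 15.4 to 34.0 FPKM in WT mice, and 8.40 to 11.5 FPKM in Adi-KO and 2.03 to 8.78 FPKM in WT mice on NCD. It rose with HFD in WT mice by 2.09 (adjusted p = 0.00012) and differed by 0.42 in Adi-KO mice (adjusted p = 0.34, limma, Benjamini-Hochberg). Its interaction was −1.67, and that of *Cpa3*, the mast cell carboxypeptidase, was −1.17. Of 17 endothelial markers, 16 had a positive interaction, with a median 0.20 above that of all genes and 0.12 on the TPM scale. The median was 0.10 without WT NCD mouse 180 and 0.36 without WT NCD mouse 183. Without mice 182 and 183 the median was 0.53 and 9 of the 17 were positive at an unadjusted p under 0.05 (background 4.5%), against 1 with all mice (background 4.17%). *Egfl7*, a secreted factor of endothelium, was 25.4 to 49.1 FPKM in Adi-KO and 19.7 to 23.7 FPKM in WT mice on HFD, without overlap, and its interaction was 0.60, and 0.85 without those mice.

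Of 17 glucocorticoid-response genes, 5 had a negative (background 9.03%) and 1 a positive interaction (background 4.17%) at an unadjusted p under 0.05. The list median was 0.35 below that of all genes, and −0.16 as it stands without mice 182 and 183. Without those mice, 4 were negative (background 5.04%) and 2 positive (background 4.5%) at an unadjusted p under 0.05. *Errfi1*, an inhibitor of EGF receptors, fell with HFD by 1.37 in Adi-KO mice (adjusted p = 0.00037) and differed by −0.16 in WT mice (adjusted p = 0.62, limma, Benjamini-Hochberg), for an interaction of −1.22. *Tsc22d3*, the glucocorticoid-induced leucine zipper, was 23.8 to 39.2 FPKM in Adi-KO and 39.9 to 56.4 FPKM in WT mice on HFD, without overlap, and its interaction was −0.74. *Zbtb16*, a zinc finger gene induced by glucocorticoids, went the other way at 0.83, and was lower in every Adi-KO mouse (5.36 to 10.6 FPKM) than in any WT mouse (10.9 to 20.3 FPKM) on NCD. Of 22 immediate early genes, 5 were negative at an unadjusted p under 0.05 (background 9.03%), among them *Klf4* (−0.67) and *Dusp1* (−0.77).

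The remaining lists gave few values at an unadjusted p under 0.05, where the background was 4.17% positive and 9.03% negative. Of 34 glutathione and redox genes there were 3 positive and 2 negative ones, with *Gsta4* at 1.49 and *Nfe2l2*, the regulator NRF2 of such genes, at −0.47. There were 2 negative ones among 21 lipolysis and lipid droplet genes, *Hilpda* (−0.66) among them, although 14 of the 21 had a positive interaction. Without mice 182 and 183, 4 of these were positive and 1 negative at an unadjusted p under 0.05, and the median was 0.38. *Ebf2* (−0.65) was the only one among 9 thermogenic genes, and among 15 adipokine genes there were 0. The adipokine median was 0.20 below that of all genes (0.32 on the TPM scale) with all mice, and above 0 without WT NCD mouse 182 (0.0225) and without mice 182 and 183 (0.08). *Asns* (0.75) was the only one of 24 ER stress genes, *Fdft1* (0.54) of 22 cholesterol synthesis genes and *Rps19* (0.39) of 51 cytosolic ribosome genes. Without mice 182 and 183, 0 ER stress and 0 cholesterol synthesis genes were positive at an unadjusted p under 0.05. The ER stress median went from 0.08 above that of all genes to −0.14 without these mice, and the cholesterol synthesis median from 0.26 above it to −0.10. The cytosolic ribosome median was 0.09 above that of all genes, 0.05 below it on the TPM scale and −0.08 without WT NCD mouse 183. *Foxo3* (−0.33) and *Grb14* (−0.78) were among 3 of 22 insulin signaling genes, and *Per2* (−0.63) and *Wee1* (−0.76) among 4 of 14 genes of the day arm of the clock. For the night arm of the clock (8 genes), proliferation (22 genes, all rising with HFD in both genotypes), T and NK cells (7), B cells (7) and mural, muscle and nerve cells (9) the number was 0, and for mesothelium it was 1 of 11. Of the 9 mural, muscle and nerve genes, 8 had a positive interaction, with a median 0.62 above that of all genes. That median was 0.30 without mouse 183. Without mice 182 and 183 it was 0.50, with all 9 positive. The median interaction of 12 seminal vesicle genes was 3.56 with all mice and 0.55 without mouse 183, and without mice 182 and 183, where 4 of them could be tested, it was −1.25.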
